A study of Mus musculus with 6 samples.

Results

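Nuclear factor erythroid 2-related factor 2 (Nrf2, gene *Nfe2l2*), its inhibitor *Keap1* and 7 of their classical antioxidant target genes were followed in the hippocampus of pups that lack *LAO1*, on postnatal day 10 (P10). The genes were *Nfe2l2*, *Keap1*, *Slc7a11*, *Srxn1*, *Hmox1*, *Nqo1*, *Gclc*, *Gclm* and *Txnrd1*. They were found by their symbol in the array annotation, taking the brightest transcript cluster (the set of probes for 1 transcript region) per symbol, and all 9 had 1 cluster each among 19505 named genes. As each gene had 1 cluster, the choice by brightness decided nothing, although the set was proposed with earlier results of these data known.

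Hippocampal RNA was hybridized to Clariom S mouse arrays, and each of the 6 arrays gave log2 intensities for 22206 clusters. The pups of *LAO1* KO with WT milk (n = 3) were nursed by wild-type dams, and those of *LAO1* KO with KO milk (n = 3) by *LAO1* KO dams. All pups of both groups lacked LAO1, the L-amino acid oxidase that releases hydrogen peroxide into milk, on a C57BL/6Jcl background. Per the methods, neonates were switched between dams soon after birth for cross-fostering. The comparison therefore asks whether hippocampal transcripts differed between pups nursed by WT and by *LAO1* KO dams. The milk and other properties of the nursing dam cannot be told apart here. No pup of WT genotype was part of the arrays, and the sources used here do not give the litter of each pup, so the p-values measure the spread between these samples.

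Nrf2 is a basic leucine zipper transcription factor that is degraded in resting cells, because Keap1 holds it and hands it to a Cul3 ubiquitin ligase. Electrophiles and hydrogen peroxide modify cysteines of Keap1, Nrf2 then accumulates, pairs with a small Maf protein and binds antioxidant response elements (AREs) near genes for glutathione synthesis, thioredoxin reduction, quinone reduction and heme breakdown. In the brain this program is known to be most active in astrocytes, and since Nrf2 is controlled mainly at the protein level, the transcript of *Nfe2l2* does not measure its activity.

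The core ARE, written TGACNNNGC with N for any base, was searched on both strands of the RefSeq promoter windows of the GRCm38.p6 assembly, which run from 250 bases before to 50 bases after a transcript start. Windows were matched for 7 of the 9 genes, all but *Hmox1* and *Gclc* (*Txnrd1* had 3), and 4 of these 7 genes held a match. Counted by window, 4 of their 9 windows held a match, beside 12.4% of all 32851 windows. The matches are shown because they have the core letters of the element through which Nrf2 acts. The matching letters are in capitals with 8 bases on either side, read 5′ to 3′ on the strand of the gene. Those of *Srxn1*, *Gclm* and *Txnrd1* lie on the opposite strand and so appear as the reverse complement.
*Nfe2l2*, chr2:75704887-75704911, minus strand: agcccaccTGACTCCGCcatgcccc
*Srxn1*, chr2:152105544-152105568, plus strand: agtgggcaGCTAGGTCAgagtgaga
*Gclm*, chr3:122245415-122245439, plus strand: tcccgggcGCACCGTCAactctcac
*Txnrd1*, chr10:82859106-82859130, plus strand: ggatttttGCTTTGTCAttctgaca
The first capital lies 240 bases before the start in *Nfe2l2*, 134 before it in *Gclm* and 92 before it in *Txnrd1*, whereas in *Srxn1* the match opens at base 29 after the start. No match was found in the windows of *Keap1*, *Nqo1* and *Slc7a11*, which says only that these letters are not in this short stretch.

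Further motifs were searched after the sequences had been seen, for *Slc7a11* and *Srxn1*, the genes with the clearest differences described below. The amino acid response element core TGATGNAA, to which Atf4 binds when amino acids run short, stood in 3.97% of all windows and occurred 2 times in that of *Slc7a11*. The cores face each other, 11 bases apart, from base 66 to base 40 before the start, and are shown in capitals because *Slc7a11* is known as a target of both Nrf2 and Atf4.
*Slc7a11*, chr3:50443653-50443679, minus strand: TGATGCAAacctggagaatTTGCATCA
The AP-1 element TGACTCA, which other basic leucine zipper pairs bind, stood in 5.2% of windows and occurred 2 times in that of *Srxn1*, on the opposite strand. A TGACTCA followed by GC would also match the ARE letters, but neither of these 2 is followed by GC on the strand that reads TGACTCA.
*Srxn1*, chr2:152105414-152105436, plus strand: ggagggccTGAGTCAccacgctg
*Srxn1*, chr2:152105471-152105493, plus strand: attcacccTGAGTCAgcggccgg
All of these matches are descriptions of the reference letters and not evidence of binding.

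Some properties of the arrays bear on every value. KO milk replicate 3 stood apart, since its root mean square distance from the other arrays was 0.479 to 0.537 on the log2 scale, against 0.321 to 0.407 between all other pairs. The labels call all pups male, but *Eif2s3y*, *Kdm5d* and *Uty*, which are Y-linked, were high in WT milk replicates 1 and 3 and KO milk replicate 2 and at the floor in the other 3 arrays. Hippocampal and pan-neuronal markers lay above the floor in all arrays for 12 of 12 measured genes, as did thalamus markers for 8 of 8, so this check does not tell hippocampus from neighbouring tissue. Of the 12, 6 were below 0 in the milk difference and the median was 0.06. The 2 with the smallest p were both positive. *Prox1*, the transcription factor of dentate granule cells, was higher with KO milk, by 0.54 on the log2 scale (limma unadjusted p = 0.0149), and *Grik4*, a kainate receptor subunit gene, differed by 0.30 (limma unadjusted p = 0.177). The floor was taken as the 95th percentile of 1414 olfactory and vomeronasal receptor clusters, genes that brain hardly uses, and lay at 5.73 to 6.02. By this measure 7 of the 9 genes were above the floor in all arrays, and *Nfe2l2* and *Nqo1* were below it in all arrays. Probes of different genes differ in brightness, so levels are compared within a gene only.

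Among the 9 genes, *Slc7a11* was lower with KO milk and 8 did not pass even the unadjusted test. With limma at an unadjusted p under 0.05, 1 of 9 was lower, where 369 of the 22206 clusters (1.66%) were lower, and 0 of 9 were higher, where 357 clusters (1.61%) were higher. After Benjamini-Hochberg adjustment limma called 0 of 9 members and 0 clusters in all (0%), and an unmoderated test per cluster also called 0 after adjustment, with 358 clusters lower and 406 higher before it. The KO milk arrays all lay below the WT milk arrays for 2 of 9 genes, *Slc7a11* and *Srxn1*, beside 926 clusters (4.17%) in the whole table, and all above them for 0 of 9, beside 947 clusters (4.26%). The median log2 fold change (the KO milk mean minus that of WT milk) of the 9 genes was -0.07, beside 0.0043 for all clusters, with 6 genes below 0 and 3 above. Over all clusters 49.2% were below 0. With this number of arrays the standard errors of the 9 differences were 0.18 to 0.24, which limits what could be detected.

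**Figure D1:**
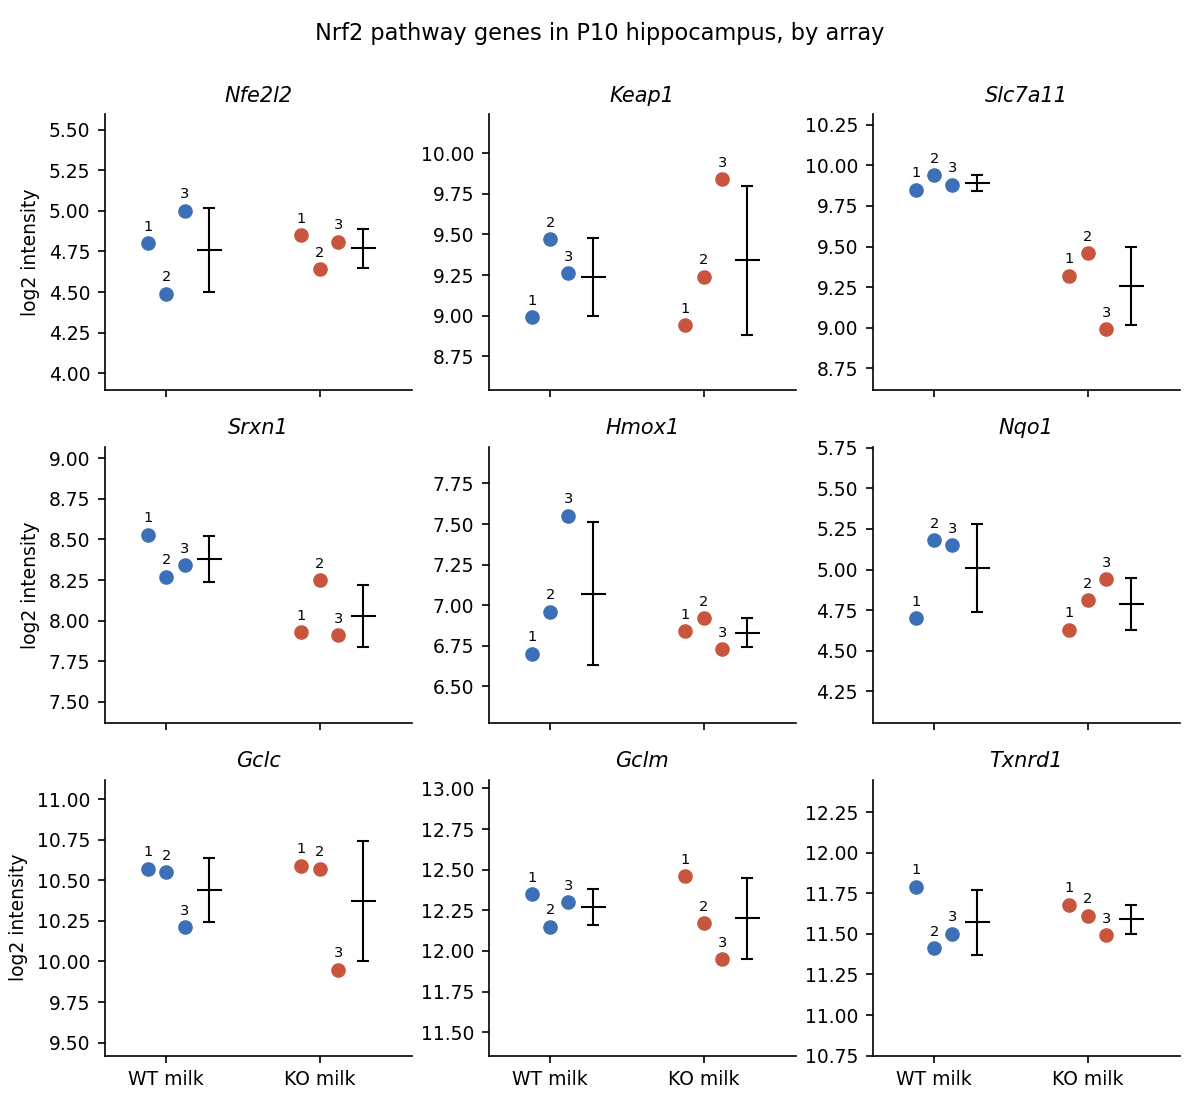
Log2 intensity (vertical axis, a span of 1.7 in each panel, not starting at 0) of the 9 genes in each array of *LAO1* KO with WT milk (blue) and with KO milk (red), with the replicate number above each point and the group mean and SD (n = 3) as a black bar. *Slc7a11* is the gene whose groups are clearly apart, at 9.85 to 9.94 with WT milk and 8.99 to 9.46 with KO milk.

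*Slc7a11* encodes xCT, the light chain of the cystine and glutamate exchanger that brings in cystine for glutathione. Its log2 intensities were 9.85, 9.94 and 9.88 in WT milk replicates 1, 2 and 3 and 9.32, 9.46 and 8.99 in KO milk replicates 1, 2 and 3. The WT milk arrays lay close together and all KO milk arrays were lower, with a gap of 0.38 between the groups. The means were 9.89 ± 0.05 (SD, n = 3) and 9.26 ± 0.24 (SD, n = 3). The log2 fold change was -0.63 (SE 0.18, 95% interval -1.03 to -0.23, limma unadjusted p = 0.00558, adjusted p = 0.9996), which is a 1.55-fold higher level with WT milk (95% interval 1.17 to 2.05). An exact two-sided permutation test over the 6 arrays gave p = 0.1, the smallest that 3 against 3 allows. Of all clusters, 0.703% had a log2 fold change as low or lower. Since whole tissue was measured, fewer cells of a type and less RNA per cell cannot be told apart here or for any gene below.

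The *Slc7a11* difference was -0.40 within the arrays with Y-linked signal (WT milk n = 2, KO milk n = 1) and -0.78 within those without it (WT milk n = 1, KO milk n = 2). Since the groups did not overlap, both signs were fixed before the split and show nothing about the sex of the pups. Without KO milk replicate 3, the array with the lowest *Slc7a11*, it was -0.50 (limma unadjusted p = 0.0139). Several markers of other cell types moved with the groups, and they are given here because *Slc7a11* is not expressed by 1 cell type alone. Oligodendrocyte and myelin markers were lower with KO milk for 10 of 11 measured genes at an unadjusted limma p under 0.05 (median -0.98), among them *Cldn11* of the myelin tight junctions and the tetraspanin gene *Tspan2*, at -1.26 and -1.28. The mean log2 level of this list was 10.74 to 11.06 over the WT milk arrays and 9.62 to 10.33 over the KO milk arrays, with 0 of 11 markers below the floor in all arrays. Thalamus markers were lower for 4 of 8 (median -0.37), with *Slc17a6*, a vesicular glutamate transporter gene, at -0.72 and *Tcf7l2* at -0.98. The list level was 10.08 to 10.55 with WT milk and 9.83 to 9.89 with KO milk, and 0 of 8 were below the floor in all arrays. In choroid plexus markers 2 of 8 were lower, *Ttr* (transthyretin) at -5.30 and *Clic6* at -1.41, with a list level of 8.19 to 9.21 against 6.06 to 9.25 and 0 of 8 below the floor in all arrays. Their low arrays were KO milk replicates 1 and 3. With the choroid plexus level as a covariate, a fit added after seeing the data, *Slc7a11* differed by -0.49 (limma unadjusted p = 0.0497). Astrocyte markers had a median of -0.09 and a list level of 12.29 to 12.45 against 12.20 to 12.33, with *S100b*, a calcium-binding protein gene, the 1 of 11 that was lower (-0.58), *Gja1*, the main astrocytic gap junction gene, at -0.37 (limma unadjusted p = 0.0944), and 0 of 11 below the floor in all arrays. Of the microglia, endothelial and mural, meningeal fibroblast, border macrophage and red blood cell lists, no gene passed an unadjusted limma p of 0.05. Their median log2 fold changes were -0.01, 0.01, -0.05, 0.13 and 0.05, over 9, 12, 8, 5 and 3 measured genes. The part of myelin, thalamus and astrocyte markers in the *Slc7a11* result was not tested.

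**Figure D2:**
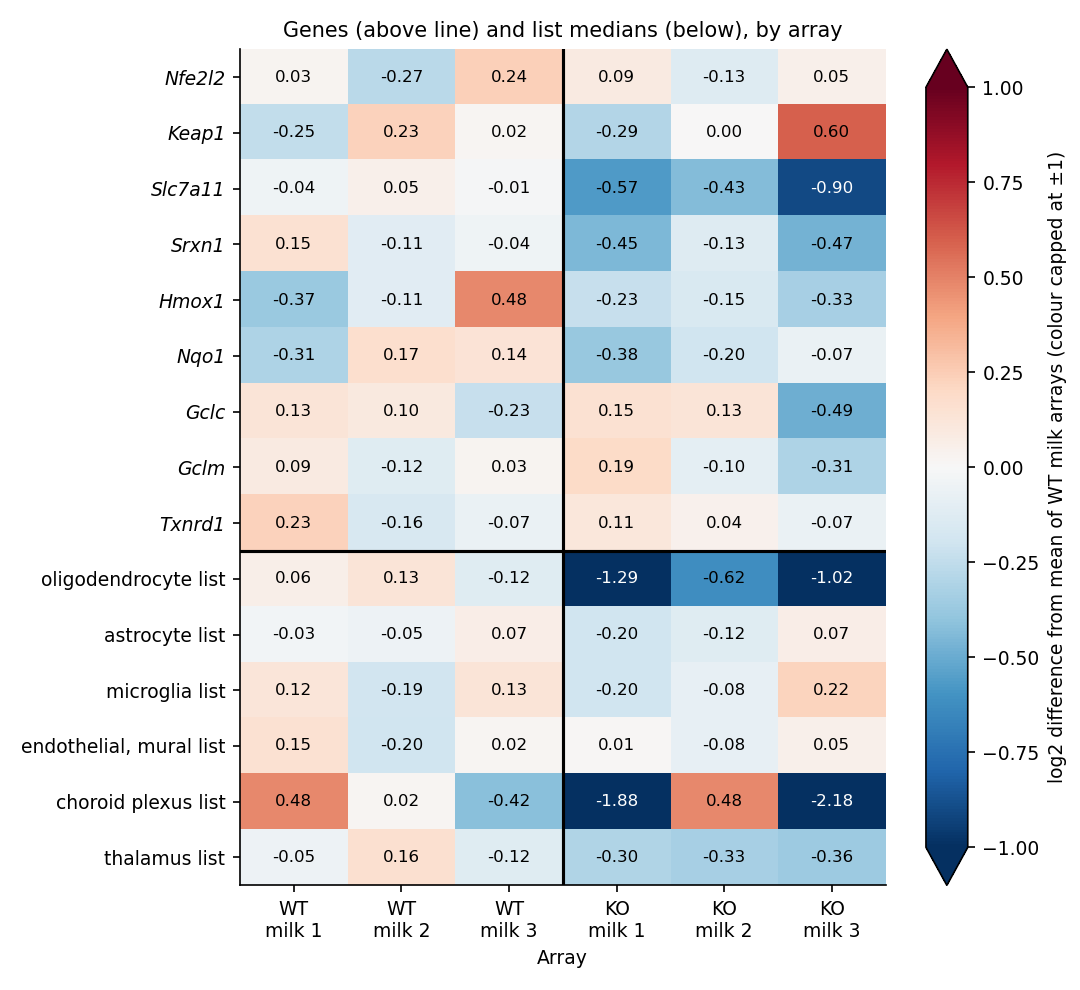
Log2 difference of each array (columns) from the mean of the 3 WT milk arrays for the 9 genes (rows above the line) and for the median gene of 6 marker lists (rows below it), with blue for lower, red for higher and the colour capped at 1. *Slc7a11* is lower in all 3 KO milk arrays, as are the oligodendrocyte and thalamus lists. The choroid plexus list is lowest in KO milk replicates 1 and 3, at -1.88 and -2.18, and is at -0.42 in WT milk replicate 3.

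*Srxn1* encodes sulfiredoxin, which reactivates overoxidized peroxiredoxins. Its log2 intensities were 8.53, 8.27 and 8.34 in WT milk replicates 1, 2 and 3 and 7.93, 8.25 and 7.91 in KO milk replicates 1, 2 and 3. KO milk replicates 1 and 3 were clearly low, but KO milk replicate 2 and WT milk replicate 2 lay 0.02 apart, so the groups were separated by that margin alone. The log2 fold change was -0.35 (SE 0.18, 95% interval -0.75 to 0.05, limma unadjusted p = 0.0784, adjusted p = 0.9996), and the exact permutation test again gave its smallest p of 0.1. With 1 array in an arm of each, the arrays with Y-linked signal differed by -0.19 and those without it by -0.35, where the sign was again fixed by groups that do not overlap. With the choroid plexus level as a covariate the difference was -0.19 (limma unadjusted p = 0.406). The low *Srxn1* arrays, KO milk replicates 1 and 3, were also arrays in which the choroid plexus markers were low. The oligodendrocyte list was lower there too, with median deviations of -1.29 and -1.02, against -0.62 in KO milk replicate 2. The thalamus list was nearly level over KO milk replicates 1, 2 and 3, at -0.30, -0.33 and -0.36. The choroid plexus fit was added after seeing the data, and the part of oligodendrocyte and thalamus markers in the *Srxn1* difference was not tested.

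The switch itself showed no milk difference that passed the test. *Keap1*, the cysteine-rich sensor that targets Nrf2 for degradation, was at 8.99, 9.47 and 9.26 in WT milk replicates 1 to 3, against 8.94, 9.24 and 9.84 in KO milk replicates 1 to 3. Its highest and its lowest array were both in the KO milk group, and the groups overlapped. The log2 fold change was 0.10 (SE 0.24, 95% interval -0.43 to 0.64, limma unadjusted p = 0.674), and it was -0.14 without KO milk replicate 3. *Nfe2l2* was at 4.80, 4.49 and 5.0 in WT milk replicates 1 to 3, against 4.85, 4.64 and 4.81 in KO milk replicates 1 to 3, with a log2 fold change of 0.00 (SE 0.19, 95% interval -0.41 to 0.42, limma unadjusted p = 0.982). All 6 values lay below the floor of the receptor clusters but above their median of 4.27 to 4.42, so this probe set said little about the level of Nrf2 transcript.

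Neither glutathione-synthesis target downstream of cystine uptake passed the test. *Gclc*, the catalytic subunit of glutamate-cysteine ligase, was at 10.57, 10.55 and 10.21 in WT milk replicates 1 to 3, against 10.59, 10.57 and 9.95 in KO milk replicates 1 to 3. *Gclm*, the modifier subunit of the same enzyme, was at 12.35, 12.15 and 12.30 in WT milk replicates 1 to 3, against 12.46, 12.17 and 11.95 in KO milk replicates 1 to 3. For both genes KO milk replicate 1 was the highest of the 6 arrays and KO milk replicate 3 the lowest, and the groups overlapped. Their log2 fold changes were -0.07 (95% interval -0.55 to 0.41) and -0.07 (95% interval -0.49 to 0.34), with unadjusted limma p-values of 0.758 and 0.703. Without KO milk replicate 3 they were 0.14 and 0.05. The intervals thus do not exclude differences as large as the lower bound of either gene, and the difference between these genes and *Slc7a11* was not tested.

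Among the targets for thiol reduction, quinone reduction and heme breakdown, *Txnrd1*, the cytosolic thioredoxin reductase, was at 11.79, 11.41 and 11.50 in WT milk replicates 1 to 3, against 11.68, 11.61 and 11.49 in KO milk replicates 1 to 3. The groups overlapped and the log2 fold change was 0.03 (SE 0.18, 95% interval -0.37 to 0.42, limma unadjusted p = 0.887). *Hmox1*, the inducible heme oxygenase, was at 6.70, 6.96 and 7.55 in WT milk replicates 1 to 3, against 6.84, 6.92 and 6.73 in KO milk replicates 1 to 3. Its spread lay mostly in the WT milk group, where replicate 3 was high, and the log2 fold change of -0.24 (SE 0.23, 95% interval -0.73 to 0.26, limma unadjusted p = 0.318) became 0.00 without that array. *Nqo1*, the quinone reductase often read as the marker of Nrf2 activity, was at 4.70, 5.18 and 5.15 in WT milk replicates 1 to 3, against 4.63, 4.81 and 4.94 in KO milk replicates 1 to 3. All 6 values were below the floor, the groups overlapped, and the log2 fold change was -0.22 (SE 0.19, 95% interval -0.65 to 0.21, limma unadjusted p = 0.289).

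**Figure D3:**
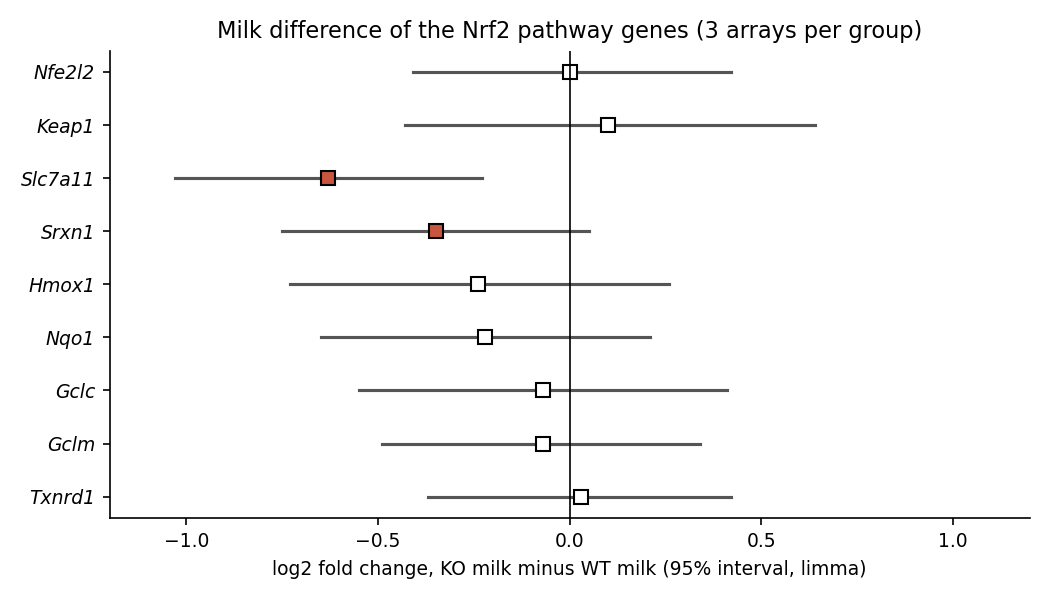
Log2 fold change (horizontal axis, positive where KO milk is higher) of the 9 genes with its 95% interval from limma, 3 arrays per group, with filled squares for genes whose groups did not overlap. The interval of *Slc7a11*, -1.03 to -0.23, is the one that leaves out 0, and that of *Srxn1* runs from -0.75 to 0.05.

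Read by array, 5 of the 9 genes lay below the WT milk mean in KO milk replicate 1, 6 in replicate 2 and 7 in replicate 3, with median deviations of -0.23, -0.13 and -0.31. The median deviations of all clusters in the same arrays were 0.01, 0.00 and 0.02. In WT milk replicates 1, 2 and 3, which make up that mean, 4, 5 and 4 of the 9 genes lay below it. Their median deviations were 0.03, -0.11 and 0.02, so WT milk replicate 2 was close to KO milk replicate 2. KO milk replicate 3 held the lowest value of *Slc7a11*, *Srxn1*, *Gclc* and *Gclm* and the highest of *Keap1*. As this array also stood apart over the whole table, these extremes cannot be told apart from its distance in general.

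The wider pathway was described with 7 lists of 90 genes, of which 82 were measured and 8 were not analysed here. Of the 82 genes, 1 was higher and 1 lower with KO milk at an unadjusted limma p under 0.05, beside 1.61% and 1.66% of all clusters, and 80 did not pass, with list medians of -0.03 to 0.07 and a median over all 82 genes of 0.03. The lower gene was *Mgst1*, a microsomal glutathione transferase, and the higher one was *Atf3*, a stress-induced transcription factor. Neither had groups that were apart, and 0 of the 82 genes passed after adjustment. Both calls depended on which array was left out. *Mgst1* still passed without WT milk replicate 1 (-0.65, limma unadjusted p = 0.0205) or KO milk replicate 2 (-0.68, limma unadjusted p = 0.0116). *Atf3* still passed without WT milk replicate 2 (0.84, limma unadjusted p = 0.0154) or KO milk replicate 2 (0.84, limma unadjusted p = 0.0123). Without WT milk replicate 2 or 3 or KO milk replicate 1 or 3, *Mgst1* differed by -0.39, -0.46, -0.44 or -0.38 and no longer passed (limma unadjusted p from 0.109 to 0.148). Without WT milk replicate 1 or 3 or KO milk replicate 1 or 3, *Atf3* differed by 0.39, 0.64, 0.61 or 0.41 and did not pass (limma unadjusted p from 0.0839 to 0.193). Other genes of the lists passed when an array was left out, namely *Nfe2l3* without WT milk replicate 2, *Txnip* without KO milk replicate 1, *Mafk* without KO milk replicate 3, and *Nqo2*, *Ugdh* and *Slc7a5* without KO milk replicate 2. The counts over the 82 genes thus ran from 0 to 3 lower and from 0 to 2 higher. *Slc7a11* passed the unadjusted limma test whichever array was left out.

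Among 18 partners, competitors and degradation factors of Nrf2, 0 passed in either direction (median 0.07). The 3 with the smallest p were *Mafk*, a small Maf partner, at -0.38 (limma unadjusted p = 0.106), the related factor *Nfe2l3* at 0.37 (limma unadjusted p = 0.114) and the ligase scaffold *Cul3* at -0.35 (limma unadjusted p = 0.177). *Mafk* was low in KO milk replicates 1 and 2, at 5.69 and 5.82, but at 6.40 in replicate 3, level with the WT milk arrays. Both *Mafk* and *Nfe2l3* had values near the floor, being above it in 5 and in 3 of the 6 arrays. *Cul3* was low in KO milk replicate 3 only, at 12.65 against 13.36 to 13.68 in the other arrays. The ligase subunit gene *Fbxw11*, chosen after its values were seen, differed by 0.19 (limma unadjusted p = 0.279). It was the 1 gene of the 82 whose KO milk arrays all lay above the WT milk arrays, beside 4.26% of all clusters. For 2 of the 82 genes the KO milk arrays all lay below, beside 4.17% of all clusters.

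In the glutathione list 1 of 18 genes was lower and 0 were higher (median 0.06). *Mgst1* was at 8.40, 8.91 and 8.77 in WT milk replicates 1 to 3, against 8.08, 8.55 and 7.95 in KO milk replicates 1 to 3, a log2 fold change of -0.50 (SE 0.22, limma unadjusted p = 0.0427). KO milk replicate 2 lay above WT milk replicate 1, so the groups overlapped. *Gstm1*, a cytosolic glutathione transferase, differed by 0.31 (limma unadjusted p = 0.143), and *Abcc1*, an exporter of glutathione conjugates, by -0.24 (limma unadjusted p = 0.204). All KO milk arrays of *Abcc1* lay below the WT milk arrays, but by a gap of 0.01 only. *Slc3a2*, the heavy chain that carries the product of *Slc7a11* to the cell surface, was chosen after its values were seen. It was at 15.27, 15.29 and 15.21 in WT milk replicates 1 to 3, against 15.36, 15.23 and 15.70 in KO milk replicates 1 to 3, so that its value in KO milk replicate 3 was the highest of the 6 where that of *Slc7a11* was the lowest.

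In the lists for supply and use of reducing power no gene passed with all 6 arrays. None of 12 thioredoxin and peroxiredoxin genes passed in either direction (median -0.03), with *Prdx3*, the mitochondrial peroxiredoxin, at -0.23, *Sesn1* at -0.28 and thioredoxin itself, *Txn1*, at -0.24. *Txn1* was at 13.36 in KO milk replicate 3 and at 14.25 to 14.72 in the other arrays, so it was low in 1 array only. Of 5 NADPH-supplying enzymes 0 passed (median 0.00), with *Pgls* at 0.24, *Pgd* at 0.18 and malic enzyme *Me1* at -0.10. Of 8 genes for heme breakdown and iron 0 passed (median 0.00), with the ferritin light chain *Ftl1* at 0.19, the iron exporter *Slc40a1* at -0.15 and the biliverdin reductase *Blvrb* at -0.17. Among 11 quinone, carbonyl and epoxide enzymes 0 passed (median 0.02), with *Aox1* at -0.32, *Ugdh* at -0.53 and *Nqo2* at -0.40. *Aox1* was below the floor in all arrays, and its groups were apart by a gap of 0.04 only. *Ugdh* and *Nqo2* were both lowest in KO milk replicate 3, at 7.37 and 7.71.

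Atf4 and its amino acid response targets were included because *Slc7a11* belongs to them as well, and 1 of 10 was higher and 0 were lower (median 0.06). *Atf3* was at 7.10, 8.0 and 7.59 in WT milk replicates 1 to 3, against 8.20, 7.74 and 8.61 in KO milk replicates 1 to 3, a log2 fold change of 0.62 (SE 0.27, limma unadjusted p = 0.0446). KO milk replicate 2 lay below WT milk replicate 2. *Slc7a5*, the large neutral amino acid transporter that shares its heavy chain with xCT, was at 12.79, 12.81 and 12.80 in WT milk replicates 1 to 3, against 13.35, 12.81 and 13.66 in KO milk replicates 1 to 3, a difference of 0.47 (SE 0.22, limma unadjusted p = 0.0577). Its 3 WT milk arrays and KO milk replicate 2 were nearly equal, and KO milk replicates 1 and 3 were high. *Atf4* itself differed by -0.28 (limma unadjusted p = 0.206). Of the 10 genes 4 were below 0, and the difference between this list and *Slc7a11* was not tested.

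**Figure D4:**
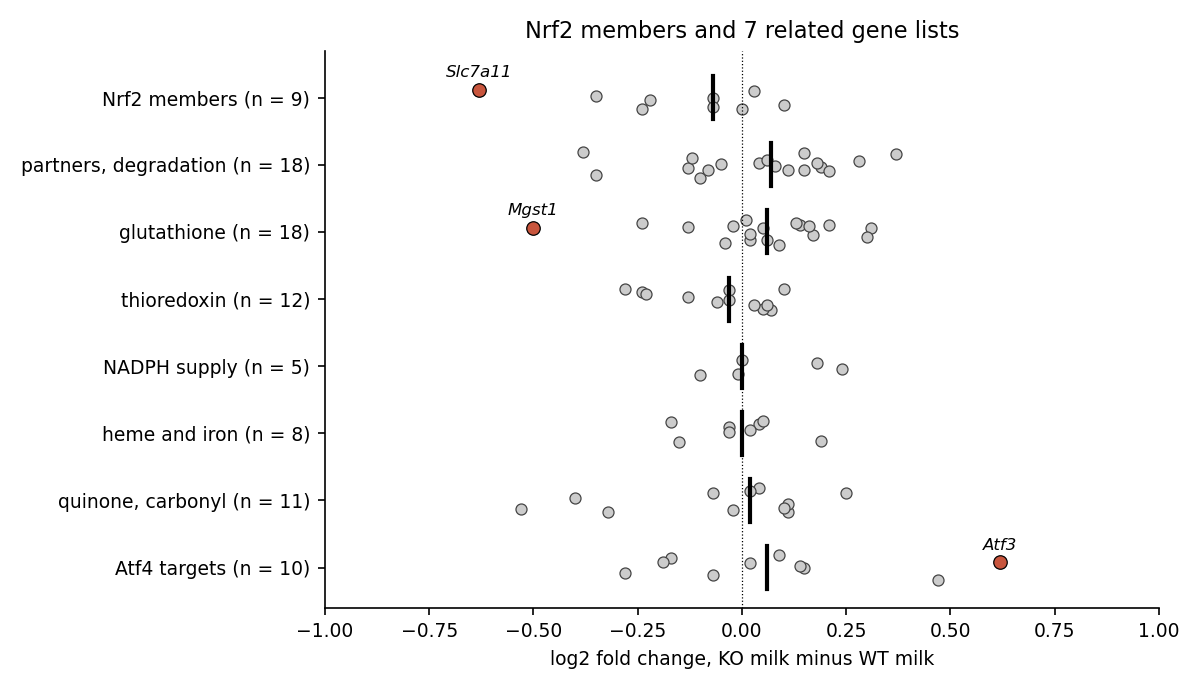
Log2 fold change (horizontal axis, positive where KO milk is higher) of each measured gene of the 9 Nrf2 members and 7 related lists, 1 point per gene, with a black bar at the list median. Red points passed an unadjusted limma p of 0.05, which are *Slc7a11* (-0.63), *Mgst1* (-0.50) and *Atf3* (0.62), and the list medians lie between -0.07 and 0.07.

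The genes most like the 2 regulators were looked up by Pearson's r over the 6 arrays among clusters above the floor in all arrays, as a description in which the points share array effects. For *Keap1* they were *Sort1* (r = 0.999), *Cdyl2* (r = 0.992) and *Gatad2a* (r = 0.990) of 11284 clusters, each highest in KO milk replicate 3 and lowest in KO milk replicate 1, as was *Keap1*. For *Nfe2l2* they were *Xk* (r = 0.985), *Nt5m* (r = 0.985) and *Taf11* (r = 0.981) of 11285 clusters, and each was highest in WT milk replicate 3 and lowest in WT milk replicate 2. As *Nfe2l2* was below the floor, its own pattern rests on weak signal.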

How the data were processed

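Total RNA of 6 hippocampi was labelled and run on 1-colour Clariom S arrays. The authors deposited log2 intensities that had been summarised to 1 value per transcript cluster by RMA, which corrects the background and equalises the arrays, and per the labels Transcriptome Analysis Console was used. The sources used here do not give the genome build behind the array, so no coordinates of clusters or genes on the array are printed, and those of the promoter sequences belong to the RefSeq windows. The values ran from 2.23 to 19.7, with array medians of 6.89 to 6.92. No scanner files were used. Symbols came from the array annotation, in which 19572 clusters had a symbol and 2634 had none.

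In R 4.3.3, limma 3.58.1 was fitted to all 22206 clusters with eBayes (a positive difference is higher with KO milk, Benjamini-Hochberg adjustment, threshold 0.05, no filter), after the same code was tested on simulated data. Summaries were made in Python 3.11.15. Exact permutation tests were two-sided over the 6 arrays. Promoter windows came from RefSeq (GRCm38.p6).

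The members and the gene lists were chosen with earlier results of these data known. The text names all 9 members, up to 3 genes with the smallest p of each pathway list and any gene of it at an unadjusted p under 0.05, up to 2 of each cell type list described, the 3 clusters most like *Nfe2l2* and *Keap1*, and the Y-linked genes as a check of the labelled sex. Genes outside this rule are named as chosen after their values were seen. The alternatives were repeated quantile normalization, cyclic loess, a common median, a filter on dim clusters, weights per array, a robust prior with a variance trend, an unmoderated Student test per cluster (named in the methods for pairs of groups in general, whereas array p-values there came from Transcriptome Analysis Console), Y-linked signal as a covariate, a block for the replicate number, leaving out each array and a lower floor. Choroid plexus signal as a covariate and the pathway lists without each array were added after seeing the data.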

Additional observations from a re-analysis of the deposited data

How the results depend on the processing

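*Slc7a11* stayed lower with KO milk under all 16 alternatives run (-0.73 to -0.49), with unadjusted p-values from 0.00418 to 0.0497 in limma or the unmoderated test and a lowest adjusted p of 0.7915. *Srxn1* stayed below 0 (-0.46 to -0.19) and passed an unadjusted p of 0.05 under 1 alternative, without KO milk replicate 2, where limma gave 0.0433. *Nqo1* also kept its sign (-0.37 to -0.13). The other 6 genes, none of which passed the test, changed sign under some alternatives, and the cause was not tested. *Nfe2l2* was at -0.05 after repeated quantile normalization, -0.03 after cyclic loess and -0.10 with the choroid plexus covariate, *Keap1* at -0.12 with array weights and -0.02 with the choroid plexus covariate, *Gclc* at 0.10 and 0.12 under the same settings, and *Gclm* at 0.05 with array weights. With each array left out in turn *Nfe2l2* ran from -0.13 to 0.12, *Keap1* from -0.14 to 0.30, *Hmox1* from -0.42 to 0.00, *Gclc* from -0.19 to 0.14, *Gclm* from -0.21 to 0.05 and *Txnrd1* from -0.05 to 0.14. The clusters at an unadjusted p under 0.05 numbered 726, against 353 with the filter on dim clusters (13497 tested, which leaves out *Nfe2l2* and *Nqo1*), 1165 with array weights, 479 with the Y-linked covariate and 417 with the choroid plexus covariate. With single arrays left out they numbered 588 to 1376, the last without KO milk replicate 2. Leaving out arrays gave 0 to 1 clusters after adjustment (the 1 was *Ttr*), 1 to 2 members at an unadjusted p under 0.05 and a member median of -0.18 to -0.03.

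The deviations from the group means correlated at 0.02, -0.13 and 0.02 between arrays of the replicate numbers 1, 2 and 3. The main fit did not treat the numbers as pairs. Arrays of unlike numbers were not compared in this way, so a shared litter cannot be told from these values. With the replicate block limma gave 722 clusters at an unadjusted p under 0.05, 0 after adjustment, 1 member (*Slc7a11*, -0.63, unadjusted p = 0.00925) and a member median of -0.07. With the median of the receptor clusters as the floor 9 of 9 genes were above it. Averaging all clusters of a gene gave no further value, since each of the 9 has 1. Few arrays limit the precision, and *Nfe2l2* and *Nqo1*, below the floor, allow no reading of their levels.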

Other observations

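The genes most like *Slc7a11* and *Srxn1* over the 6 arrays were looked up after their values were seen, among 11284 clusters above the floor in all arrays, and are descriptions with n = 6 arrays that share array effects. For *Slc7a11* they were *Lipt2* (Pearson's r = 0.989), *Kcnc2*, a voltage-gated potassium channel gene (r = 0.988), and *Tspan2* (r = 0.988), with 143 clusters above r = 0.9. *Tspan2*, a gene of the oligodendrocyte list, was at 12.08, 12.06 and 11.93 in WT milk replicates 1 to 3, against 10.72, 11.30 and 10.22 in KO milk replicates 1 to 3. *Kcnc2* was at 10.55, 10.70 and 10.67 in WT milk replicates 1 to 3, against 10.18, 10.34 and 10.01 in KO milk replicates 1 to 3. For *Srxn1* they were *Timp3*, an inhibitor of metalloproteinases (r = 0.998), *Sash1* (r = 0.997) and *Gart*, an enzyme of purine synthesis (r = 0.994). *Timp3* was at 7.22, 7.0 and 7.03 in WT milk replicates 1 to 3, against 6.69, 6.95 and 6.64 in KO milk replicates 1 to 3.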
